A study of Mus musculus with 12 samples.

Results

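The transcripts described here encode the adaptors, IRAK kinases and TRAF ubiquitin ligases that carry a Toll-like receptor signal from the membrane to NF-kB and the interferon regulatory factors. They are 10 genes, chosen by symbol from the 55335 genes of the expression files: the adaptors Myd88, Tirap, Ticam1 and Ticam2, the kinases Irak1, Irak2, Irak3 and Irak4, and the ligases Traf6 and Traf3. All 10 passed the filter on low counts, which left 14008 genes to be tested.

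When TLR4 binds lipopolysaccharide (LPS) at the cell surface, TIRAP brings in MYD88, which assembles with the IRAK kinases and hands the signal to TRAF6 and the kinase TAK1. After the receptor is taken up, TRAM, the product of Ticam2, brings in TRIF, the product of Ticam1, and this branch signals through TRAF3 and the kinases TBK1 and IKKe to type I interferon genes. In dendritic cells these branches drive maturation and cytokine production, and LPS also changes the transcript levels of several of the signaling proteins themselves.

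RNA was sequenced from bone marrow-derived dendritic cells (BMDCs) of C57BL/6 mice in 4 groups of 3 libraries. WT cells carried CreER alone and KO cells carried CreER with CTCF fl/fl, so that all 4 groups held the tamoxifen-inducible Cre recombinase, which is expressed from the Rosa26 locus and is not restricted to a cell type. Bone marrow from adult mice of both sexes was cultured with GM-CSF for 6 days, and 4-OH tamoxifen was given on the first day to delete Ctcf, the gene of an insulator and chromatin loop protein. The sources do not state plainly whether WT cultures received the drug as well. Floating cells were then harvested and CD11c+ cells were taken with beads. WTL and KOL cells were the same 2 genotypes given LPS at 100 ng/ml for 3 h, a step that the methods place after this selection. The replicates are called biological in the study's methods, but nothing says that they came from separate mice, so p-values here measure the spread between these libraries.

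The libraries held 12769773 to 16586334 estimated reads in genes. Ctcf stood at 1051, 987 and 975 normalized counts in the WT libraries and at 569.7, 562 and 516 in the KO libraries, a log2 change of -0.87 (SE 0.08). After LPS it stood at 886, 817 and 745 in WTL and at 563, 530.0 and 526 in KOL (log2 fold change -0.59, SE 0.08), so that Ctcf transcript was lower but present in CTCF-deficient cells. Counts over the whole gene do not measure how much CTCF protein was left. The study reports efficient depletion in both mRNA and protein, and CTCF binding that was absent or strongly reduced across its sites. All 7 dendritic cell markers were detected, although Flt3 reached at most 4.10 TPM (a level per transcript length). Their sum was 7292 to 7790 TPM in WT and 5899 to 6173 TPM in KO, where mean H2-Ab1 went from 1743 to 923 TPM and Flt3 from 3.65 to 0.843 TPM while Itgax went from 366 to 606 TPM. It was 7513 to 10720 TPM in WTL and 8558 to 13051 TPM in KOL. The marker sets of T cells, B cells, NK cells, mast cells and stroma each summed to at most 3.02 TPM in any library. The summed level of 5 macrophage and monocyte markers was 518 to 566 TPM in WT and 783 to 801 TPM in KO, with Csf1r (351 to 511 TPM on average) and Ly6c2 (70.2 to 224) higher in KO and Adgre1 (99.2 to 50.4), Mertk (13.8 to 5.72) and Fcgr1 (4.31 to 1.35) lower. The summed level of 5 neutrophil markers was 362 to 385 TPM in WT and 191 to 223 TPM in KO. After LPS those sums were 252 to 335 and 305 to 409 TPM for macrophages in WTL and KOL, and 331 to 421 and 284 to 330.0 TPM for neutrophils. Their part in the differences between genotypes below was not tested, and in bulk RNA fewer cells of a type and less RNA per cell cannot be told apart. Libraries of the LPS groups differed more among themselves than those of the other groups, and WTL replicate 2 held 5.17% ribosomal RNA against at most 1.18% elsewhere. Between pairs of libraries the chi-square of counts per degree of freedom was 1.70 to 1.92 in KO and 3.33 to 4.75 in WT. It was 8.78 to 31.4 in KOL and 31.1 to 86.0 in WTL.

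The 250 bases before the start of transcription are shown for Myd88, Irak2, Traf6 and Traf3. Of these, Myd88, Irak2 and Traf6 were called higher with LPS in both genotypes and lower in both comparisons of CTCF-deficient cells. Irak3 had the same calls but is not shown. Traf3, the other ligase, held an NF-kB match. The sequences are from RefSeq on build GRCm38.p6 and run 5′ to 3′ on the strand of the gene, with motif matches in capitals. The Myd88 stretch lies on the minus strand at chr9:119340019-119340268, and its last 23 bases are exonic in a GENCODE transcript of Myd88. No annotated exon lies in the other stretches, all on the plus strand, which are chr6:113638217-113638466 for Irak2, chr2:101678170-101678419 for Traf6 and chr12:111166120-111166369 for Traf3.
Myd88: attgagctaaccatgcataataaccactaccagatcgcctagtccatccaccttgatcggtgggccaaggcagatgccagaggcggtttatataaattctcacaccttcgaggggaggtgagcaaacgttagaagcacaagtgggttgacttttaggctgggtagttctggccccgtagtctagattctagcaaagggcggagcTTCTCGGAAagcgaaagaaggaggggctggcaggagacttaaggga
Irak2: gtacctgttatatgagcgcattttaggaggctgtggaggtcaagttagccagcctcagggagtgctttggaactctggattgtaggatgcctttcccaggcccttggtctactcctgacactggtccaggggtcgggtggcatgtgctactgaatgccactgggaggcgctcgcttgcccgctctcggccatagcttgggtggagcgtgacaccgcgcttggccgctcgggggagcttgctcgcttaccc
Traf6: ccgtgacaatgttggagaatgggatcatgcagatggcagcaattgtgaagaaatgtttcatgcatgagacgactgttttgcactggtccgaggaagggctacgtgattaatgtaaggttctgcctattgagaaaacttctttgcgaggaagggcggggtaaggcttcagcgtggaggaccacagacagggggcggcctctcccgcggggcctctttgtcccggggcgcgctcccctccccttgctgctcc
Traf3: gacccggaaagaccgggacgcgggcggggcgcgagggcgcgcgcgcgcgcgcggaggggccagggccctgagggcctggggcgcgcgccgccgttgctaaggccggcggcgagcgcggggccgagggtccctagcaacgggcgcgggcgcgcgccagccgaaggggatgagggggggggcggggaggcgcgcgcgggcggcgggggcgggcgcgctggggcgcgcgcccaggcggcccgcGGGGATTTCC

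Both strands were searched in windows from 250 bases before to 50 bases after the start for 9 members, Ticam2 being left out. The STAT motif TTCNNNGAA was found once, in Myd88, as TTCTCGGAA beginning 46 bases before the start, and 8.30% of 32851 mouse promoters of this length held it. The NF-kB motif GGGANTTTC was in none of the 9 members and in 1.11% of all promoters. A longer search with the degenerate NF-kB consensus, added after the first result, found 1 match in Traf3, GGGGATTTCC beginning 10 bases before the start, against a share of 4.51% over all promoters. A match of letters is not evidence of binding, and sites outside these windows were not searched.

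Expression was set on 2 scales. Normalized counts (estimated counts divided by library sizes scaled by the TMM method) were used to compare one gene between groups, and TPM was used to compare genes within a library. The scales differ after LPS: over all genes tested, the median log2 difference on the TPM scale was -0.44 for WTL vs WT and -0.38 for KOL vs KO, against -0.02 in both comparisons on the normalized count scale. Differences given below are fitted log2 fold changes of normalized counts with their standard errors. Tests were edgeR quasi-likelihood F tests, with Benjamini-Hochberg adjustment across the 14008 tested genes, and a gene was called at an adjusted p below 0.05. Absence of overlap between the libraries of the groups compared is given as description, and its share over all genes was not computed.

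**Figure D1:**
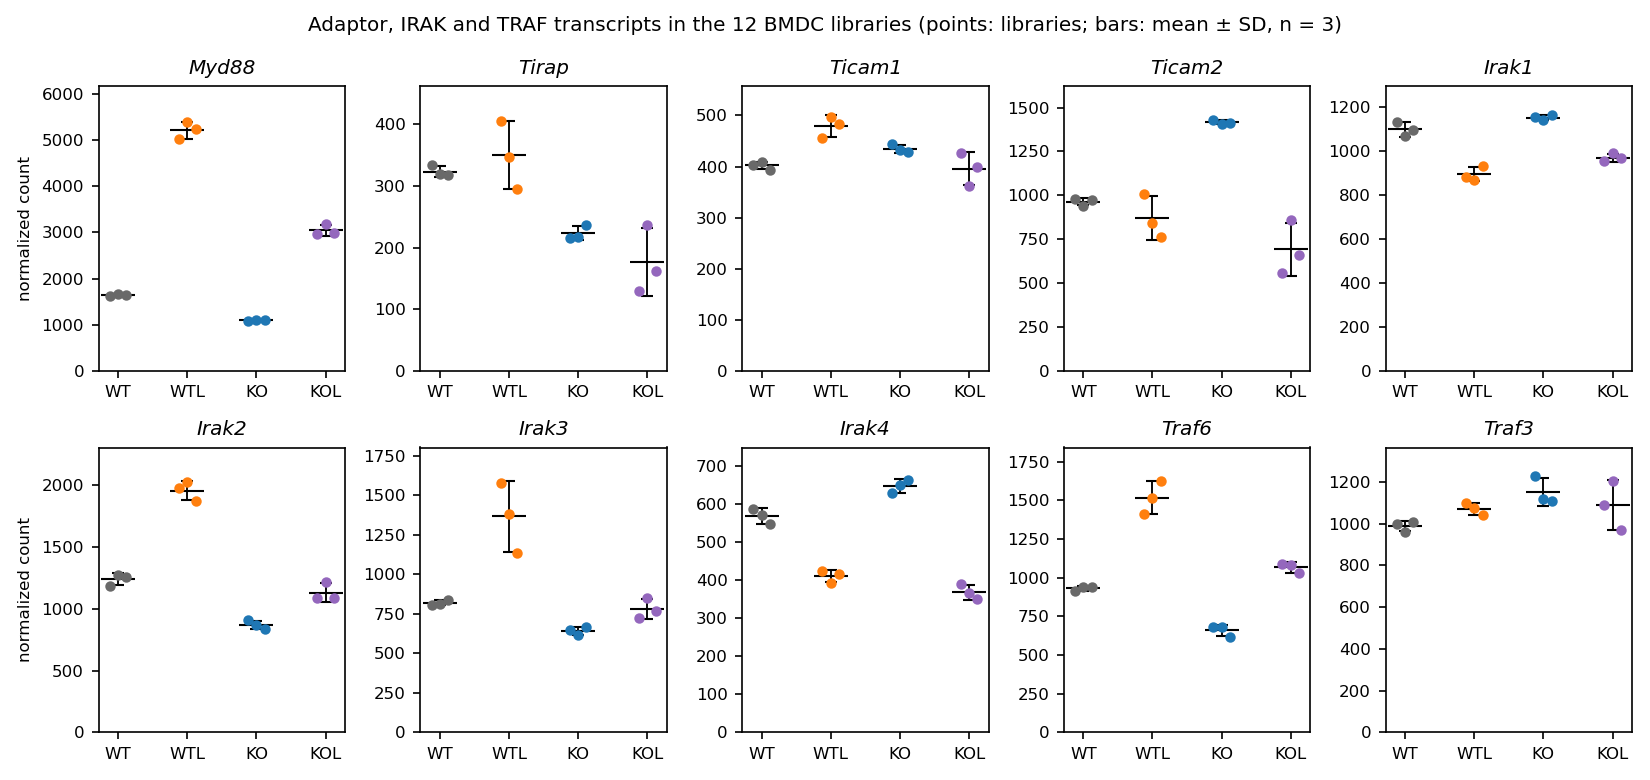
Normalized counts (vertical axes, each from 0) of the 10 adaptor, IRAK and TRAF genes in the WT, WTL, KO and KOL groups (horizontal axes); points are libraries and bars are means ± SD of 3 libraries. Myd88 reached 5022 to 5382 in WTL and 2977 to 3189 in KOL, above all unstimulated libraries, while Irak4 was lower in every LPS library than in every unstimulated one.

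Myd88 responded to LPS more than any other of the 10 genes. Transcripts of Irak2, Irak3, Traf6 and Ticam1 also rose in WT cells on the normalized count scale, whereas Irak1 and Irak4 fell. On the TPM scale Irak2 and Ticam1 did not rise, and the smaller rises of Irak3 and Traf6 were not called. Of the 10 genes, 5 were called higher and 2 lower in WTL than in WT, where 30.0% of all genes tested were called higher and 30.2% lower. On the TPM scale, uncorrected for the shift above, the split was 1 higher and 5 lower, and with TPM scaled to a common median it was again 5 and 2. The shares over all genes on these 2 scales were not computed. The median log2 fold change was 0.18 over the 10 genes and -0.02 over all genes.

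Among the adaptors, Myd88, the adaptor used by every Toll-like receptor but TLR3, stood at 1614, 1657 and 1635 normalized counts in WT and at 5022, 5382 and 5239.7 in WTL. Each LPS library lay above each unstimulated one, and the difference was 3.19-fold (log2 fold change 1.67, SE 0.06, adjusted p = 1.4e-11). Ticam1, which encodes TRIF, went from 403, 409 and 394 to 456, 497 and 484, again without overlap. Its log2 fold change of 0.25 (SE 0.07, adjusted p = 0.00745) was small, lost its call when any WT library was left out, and was -0.26 on the TPM scale. Tirap, the sorting adaptor that recruits MYD88 to the membrane, ranged from 317 to 334 in WT and from 296 to 406 in WTL and was not called (log2 fold change 0.11, 95% interval -0.22 to 0.44; -0.38 on the TPM scale). Ticam2 also overlapped between WT (940.1 to 981) and WTL (761 to 1007), with a log2 fold change of -0.15 (95% interval -0.42 to 0.12).

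The IRAK kinases divided by direction. Irak4, which encodes the kinase that acts first in the complex, fell from 586, 571 and 546 normalized counts in WT to 422, 392 and 417 in WTL (log2 fold change -0.47, SE 0.07, adjusted p = 3.36e-05). Irak1, the kinase that IRAK4 activates, stood at 1132, 1067 and 1093 in WT and 882, 869 and 932 in WTL, a log2 change of -0.29 (SE 0.06, adjusted p = 0.000903). In both genes every LPS library was below every unstimulated library.

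Irak2, whose product sustains the signal after IRAK1 is degraded, stood at 1189, 1279 and 1257 normalized counts in WT and at 1978, 2026 and 1870.3 in WTL. That was a 1.58-fold difference (log2 fold change 0.66, SE 0.07, adjusted p = 1.69e-06), while the deposited TPM was 61.4 in both groups, where the median gene was lower by 0.44. Irak3 encodes IRAK-M, an inducible brake on the pathway. It went from 807, 815 and 838 to 1582, 1385 and 1137 (log2 fold change 0.74, SE 0.10, adjusted p = 2.22e-05), with a wider spread among the WTL libraries and no overlap with WT. On the TPM scale the log2 fold change of Irak3 was 0.20 and it was not called.

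Of the ligases, Traf6, which builds the ubiquitin chains that recruit TAK1, rose from 914, 942 and 943 to 1409, 1517 and 1625 normalized counts (log2 fold change 0.70, SE 0.07, adjusted p = 9.99e-07). On the TPM scale its log2 fold change was 0.19 and it was not called. Traf3, which links TRIF to TBK1 and restrains non-canonical NF-kB signaling, was 962 to 1007 in WT and 1041 to 1098 in WTL. The libraries did not overlap, yet the log2 fold change of 0.12 (95% interval -0.06 to 0.29) was not called, and it was -0.33 on the TPM scale. With a fold of at least 2 required as well, Myd88 alone was called, against 12.6% of genes higher and 9.99% lower.

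In CTCF-deficient cells LPS gave 4 of the 10 genes called higher and 3 lower in KOL than in KO, where 33.6% of all genes were higher and 33.9% lower. On the TPM scale the split was 1 and 6, and with TPM scaled to a common median it was 3 and 3, again without a computed share over all genes. The genes called in the same direction in both genotypes were Myd88, Irak2, Irak3 and Traf6 (higher) and Irak1 and Irak4 (lower). The 2 LPS comparisons share no libraries, and the share of all genes called in the same direction in both was not computed. The median log2 fold change was -0.11 over the 10 genes and -0.02 over all genes.

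Myd88 stood at 1088, 1098 and 1104 normalized counts in KO and at 2977, 3189 and 2987 in KOL, a 2.78-fold difference (log2 fold change 1.48, SE 0.06, adjusted p = 5.08e-11). Traf6 went from 684, 681 and 619 to 1088, 1083 and 1028 (log2 fold change 0.69, SE 0.07, adjusted p = 1.19e-06). For both genes every KOL library was above every KO library. On the TPM scale the log2 fold change of Traf6 was 0.13 and it was not called.

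Irak2 stood at 907, 868 and 840.2 in KO and at 1086, 1218 and 1090.2 in KOL, called higher at a log2 change of 0.38 (SE 0.07, adjusted p = 0.000338) on normalized counts but -0.23 on the TPM scale. Irak3 was at 647, 618 and 666 in KO and 723, 848 and 767 in KOL. Its log2 fold change of 0.27 (SE 0.10, adjusted p = 0.0303) was also negative on the TPM scale, at -0.15, and lost its call in 5 of 6 leave-one-out fits.

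Irak4 fell from 627, 648 and 662 to 388, 365 and 349, to 0.569 of the KO level (log2 fold change -0.81, SE 0.07, adjusted p = 9.61e-08). Ticam2 fell further, from 1431, 1408 and 1414 to 560.2, 858 and 662, a log2 change of -1.03 (SE 0.13, adjusted p = 6.13e-06). Irak1 went from 1152, 1139.7 and 1161 to 953, 989 and 965 (log2 fold change -0.25, SE 0.06, adjusted p = 0.00263). None of these 3 genes had a KOL library that reached the KO range.

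The other 3 genes were not called in this comparison. Tirap had 215, 218 and 236 normalized counts in KO and 130.1, 238 and 162 in KOL, where replicate 2 stood apart. Its log2 fold change was -0.34 (95% interval -0.71 to 0.02) with all libraries and -0.61, past the threshold, without KOL replicate 2. Ticam1 had a log2 fold change of -0.13 (95% interval -0.29 to 0.02) and Traf3 one of -0.08 (95% interval -0.26 to 0.09). With a fold of at least 2, Myd88 was called higher and Ticam2 lower, against 15.1% of genes higher and 13.0% lower.

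**Figure D2:**
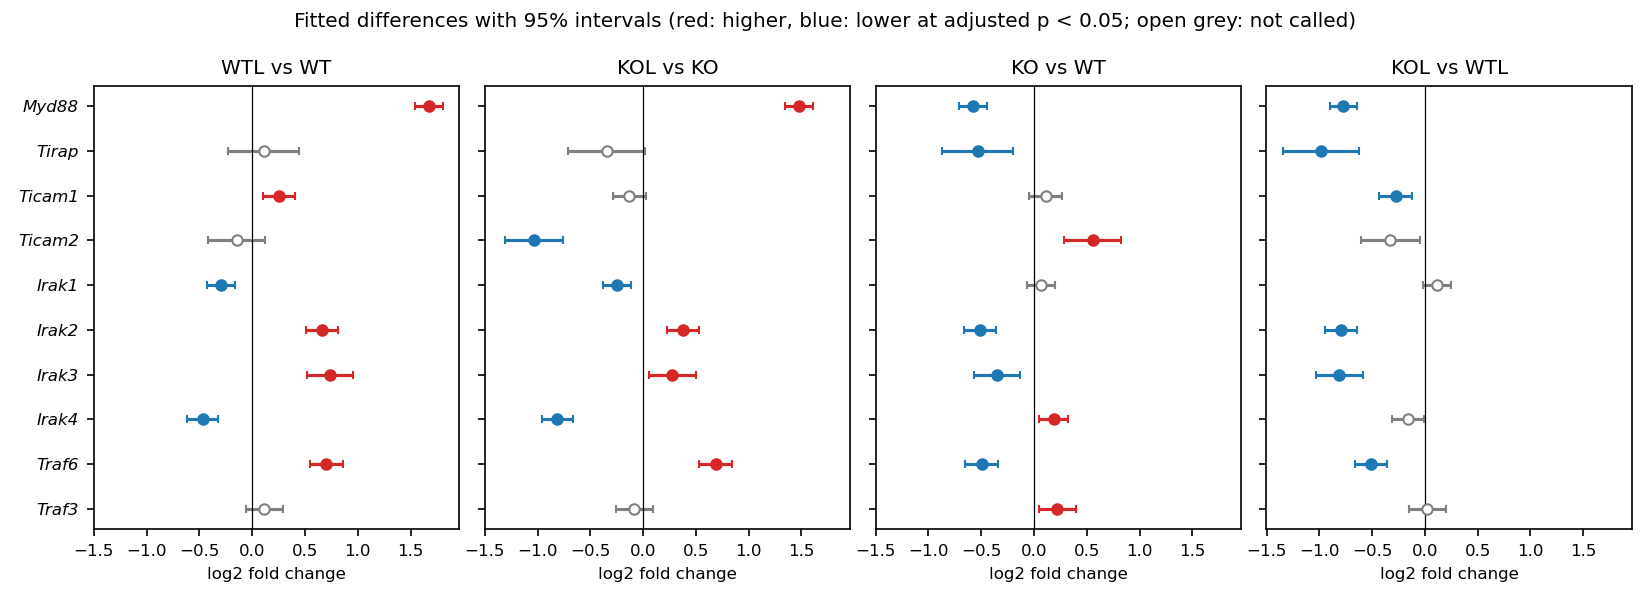
Fitted log2 fold changes (horizontal axes) with 95% intervals for each gene in the 2 LPS comparisons and the 2 comparisons of CTCF-deficient with wild-type cells; red is called higher, blue called lower and open grey not called. Myd88 lies at 1.67 and 1.48 in the LPS comparisons, and in KOL vs WTL the called genes, 6 of 10, all lie below 0.

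Between CTCF-deficient and wild-type cells the 10 genes moved in both directions. Without LPS, Myd88, Tirap, Irak2, Irak3 and Traf6 were lower in KO than in WT, while Ticam2, Traf3 and Irak4 were higher. Thus 5 of the 10 genes were called lower and 3 higher, where 22.4% of all genes tested were lower and 22.2% higher. With TPM scaled to a common median, where no share over all genes was computed, Myd88 and Traf6 alone were called lower, while the direction of the other 3 was kept. The median log2 fold change was -0.14 over the 10 genes and -0.01 over all genes. This comparison shares the WT libraries with WTL vs WT, and KOL vs WTL shares the WTL libraries.

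The KO libraries held 1088, 1098 and 1104 normalized counts of Myd88 against 1614, 1657 and 1635 in WT, to 0.671 of the WT level (log2 fold change -0.58, SE 0.06, adjusted p = 2.94e-06). Irak2 was lower by a similar amount (log2 fold change -0.51, SE 0.07, adjusted p = 4.3e-05), as was Traf6 (-0.50, SE 0.07, adjusted p = 6.51e-05). Every KO library lay below every WT library for these 3 genes. Tirap, at 215 to 236 in KO and 317 to 334 in WT, had a log2 change of -0.53 (SE 0.16, adjusted p = 0.0131). Irak3, at 618 to 666 against 807 to 838, had one of -0.35 (SE 0.10, adjusted p = 0.0131). Both were without overlap, and each lost its call without 1 KO library, Tirap without replicate 1 and Irak3 without replicate 2.

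Ticam2 moved the other way, from 981, 940.1 and 971 in WT to 1431, 1408 and 1414 in KO, 1.47-fold higher (log2 fold change 0.56, SE 0.13, adjusted p = 0.00233). Traf3 (log2 fold change 0.22, SE 0.08, adjusted p = 0.0378) and Irak4 (0.19, SE 0.07, adjusted p = 0.0316) were higher by smaller amounts. These calls rested on all 6 libraries: with any one left out, neither gene was called and Ticam2 alone remained higher. Irak1 (log2 fold change 0.07, 95% interval -0.06 to 0.20) and Ticam1 (0.11, 95% interval -0.04 to 0.26) were not called, although neither overlapped between KO and WT. Absence of overlap was common here. It held for all 10 genes, 5 higher and 5 lower, and for 14 partners higher and 21 lower of the 49 listed below. With a fold of at least 1.3 required, Myd88, Tirap, Irak2 and Traf6 were lower and Ticam2 higher, against 17.2% of genes lower and 17.3% higher.

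After LPS no gene of the 10 was called higher in KOL than in WTL and 6 were called lower, where 21.4% of all genes were higher and 23.3% lower. None was higher at an unadjusted edgeR p below 0.05 or by DESeq2 either. The median log2 fold change was -0.42 over the 10 genes and -0.03 over all genes. Myd88, Tirap, Irak2, Irak3 and Traf6 were called lower in both comparisons of CTCF-deficient with wild-type cells, which share no libraries, and Ticam1 was lower after LPS. The share of all genes called lower in both comparisons was not computed.

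Myd88 reached 2977, 3189 and 2987 normalized counts in KOL against 5022, 5382 and 5239.7 in WTL, to 0.585 of the WTL level (log2 fold change -0.77, SE 0.06, adjusted p = 1.26e-07). Irak2, at 1086, 1218 and 1090.2 against 1978, 2026 and 1870.3, had a log2 change of -0.79 (SE 0.07, adjusted p = 5.74e-07). For Irak2 the KOL libraries also lay at or below the WT libraries without LPS (1189 to 1279), apart from replicate 2 at 1218.

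Irak3 stood at 723, 848 and 767 in KOL and at 1582, 1385 and 1137 in WTL (log2 fold change -0.81, SE 0.10, adjusted p = 1.77e-05). Tirap had the largest fold of the 10, with 130.1, 238 and 162 against 406, 348 and 296 (log2 fold change -0.99, SE 0.17, adjusted p = 0.000248), and also the fewest counts. Without KOL replicate 2 its log2 fold change was -1.25. Traf6 was lower by 0.51 on the log2 scale (log2 fold change -0.51, SE 0.07, adjusted p = 4.81e-05), with 1028 to 1088 against 1409 to 1625.

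Ticam1 was lower by less, from 456, 497 and 484 in WTL to 427, 363 and 398 in KOL (log2 fold change -0.27, SE 0.07, adjusted p = 0.00717). Ticam2 (log2 fold change -0.33, SE 0.13, adjusted p = 0.053) and Irak4 (-0.16, SE 0.07, adjusted p = 0.0833) missed the threshold. With 1 library left out, Ticam2 ranged from -0.19 without KOL replicate 1 to -0.51 without KOL replicate 2, was -0.21 without WTL replicate 1, and was called without KOL replicate 2 or WTL replicate 3. Irak1 (0.12, 95% interval -0.02 to 0.25) and Traf3 (0.02, 95% interval -0.15 to 0.20) were not called either. With a fold of at least 1.5, Myd88, Tirap, Irak2 and Irak3 were called lower, against 12.5% of genes lower and 12.5% higher.

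Whether the LPS response itself differed between genotypes was tested as an interaction, the log2 fold change of KOL vs KO minus that of WTL vs WT. Here 4 genes were called lower and none of the 10 higher, where 8.75% of all genes were lower and 8.70% higher. None was higher at an unadjusted edgeR p below 0.05, and none by DESeq2. They were Ticam2 (-0.88, SE 0.18, adjusted p = 0.00395), Irak3 (-0.46, SE 0.15, adjusted p = 0.0421), Ticam1 (-0.39, SE 0.10, adjusted p = 0.0187) and Irak4 (-0.34, SE 0.10, adjusted p = 0.0237). Ticam2 kept its call in all 12 fits with 1 library left out, while Irak3 was called in 2 of them, Irak4 in 6 and Ticam1 in 7, so that the count ran from 1, without any one WT library, to 6, without KOL replicate 2. The LPS response of Myd88 differed by -0.20 (95% interval -0.38 to -0.01, adjusted p = 0.135) and that of Traf6 by -0.01 (95% interval -0.23 to 0.21), neither called by edgeR. DESeq2 called the differences of Myd88 (-0.19, adjusted p = 0.0465) and Irak2 (-0.27, adjusted p = 0.0374) as well. The median difference was -0.31 over the 10 genes and -0.02 over all genes.

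By level per length, Myd88 was the most abundant of the 10 transcripts in every group and Tirap the least. In WT the mean TPM ran from 89.4 ± 1.51 (SD, n = 3) for Myd88 through Irak2 (61.4), Irak1 (45.0), Irak3 (30.5), Ticam2 (23.6), Irak4 (21.0), Traf6 (16.6), Traf3 (15.8) and Ticam1 (13.9) to 8.85 ± 0.536 for Tirap. Neighbours in that order did not overlap between libraries, except Traf6 and Traf3. In KO, Irak1 (46.1) and Irak2 (44.3) overlapped, as did Irak4 (23.4) and Irak3 (22.1), and Ticam2 (32.6) stood above Irak3, which it did not in WT. In KOL, Traf6, Traf3, Ticam2, Ticam1 and Irak4, from 12.9 down to 9.02 TPM, overlapped each with the next.

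Shares of summed TPM do not depend on the scale between libraries. Myd88 made up 65.6, 66.1 and 65.9% of the summed TPM of the 4 adaptors in WT, 84.1, 86.1 and 86.9% in WTL, 51.2, 51.6 and 51.5% in KO and 83.6, 80.5 and 82.8% in KOL. In KO cells Ticam2 took most of the remainder, with 29.7 to 30.1% against 16.7 to 17.8% in WT, 5.62 to 7.54% in WTL and 7.01 to 9.87% in KOL. An exact two-sided permutation test over libraries, stratified by the other factor, gave p = 0.005 for both shares with LPS, the smallest p that its 400 arrangements allow. With CTCF deficiency the same permutation test gave p = 0.005 for Myd88 and p = 0.01 for Ticam2. Each p is for the mean difference over both strata, and the Ticam2 shares of WTL and KOL overlapped.

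**Figure D3:**
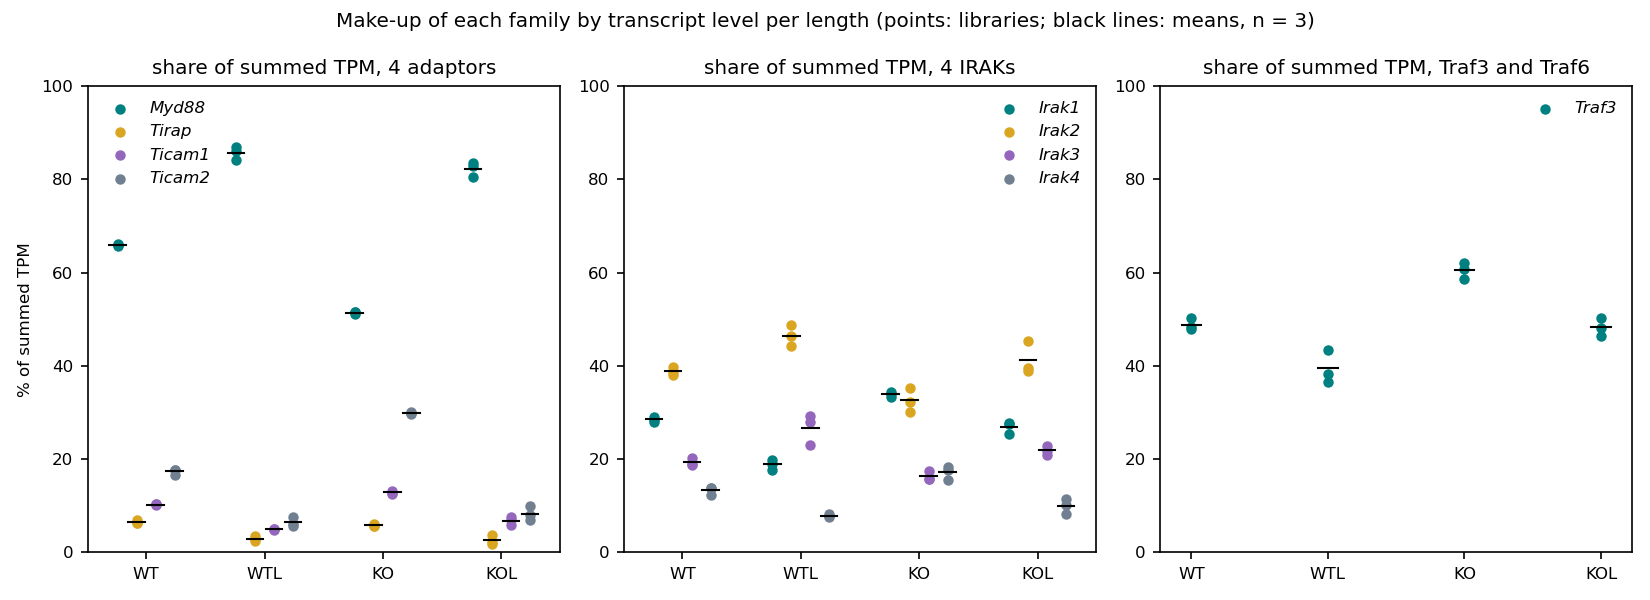
Share of summed TPM (vertical axes, percent) held by each adaptor, each IRAK and Traf3 within its family in the 4 groups; points are libraries and black lines are means of 3. Myd88 holds 65.9% of adaptor TPM in WT and 51.4% in KO, and Irak1 passes from 28.5% of IRAK TPM in WT to 18.9% in WTL.

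Within the IRAK family the share of Irak1 was 28.5% ± 0.546 (SD, n = 3) in WT, 18.9% ± 1.08 in WTL, 33.9% ± 0.493 in KO and 26.9% ± 1.28 in KOL. Irak2 held 38.9% in WT, 46.5% in WTL, 32.6% in KO and 41.2% in KOL. Irak3 rose with LPS from 19.3% to 26.8% in wild-type and from 16.3% to 21.9% in CTCF-deficient cells, and Irak4 fell from 13.3% to 7.85% and from 17.2% to 9.98%. The shares of Irak2 and Irak3 were thus higher with LPS, and those of Irak1 and Irak4 were higher in CTCF-deficient cells. Traf3 held 48.8% of the TPM of Traf3 plus Traf6 in WT, 39.4% in WTL, 60.5% in KO and 48.3% in KOL. Of 18 such tests, 17 had a Benjamini-Hochberg adjusted p below 0.05 in the exact permutation test, the lowest being 0.006. The exception was Tirap with CTCF deficiency (p = 0.225, exact permutation test). Shares within a family sum to a fixed total, so that a rise of one gene lowers the shares of the others. The tests are therefore not separate results, and they rest on the same libraries and genes as the calls above.

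The isoform-weighted gene length, which changes when the estimated mix of isoforms of a gene changes, was compared in the same way. None of 20 tests passed after adjustment (lowest adjusted p = 0.15, exact permutation test), and 2 had an unadjusted p below 0.05. These were Irak4 with LPS, longer by 114 bases (p = 0.015, exact permutation test), and Myd88 with CTCF deficiency, with a mean difference of -3.98 bases (p = 0.01, exact permutation test).

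Several of the 10 genes overlap other genes, and the strand setting of the authors' counting is not given in the sources used here. Of the 2576 exonic bases of Myd88, 290 are shared with Acaa1a, a peroxisomal thiolase gene on the opposite strand. Acaa1a was itself higher in WTL than in WT (log2 fold change 0.89), lower in KO than in WT (-0.49) and lower in KOL than in WTL (-0.88). The exons of Ticam2 share 838 of 5792 bases with Tmed7 on the same strand, and Tmed7 was not called in KO vs WT (log2 fold change 0.13) or KOL vs WTL (0.10). Irak4 shares 395 of 5021 bases with Twf1, which was higher in WTL than in WT (0.55), against the direction of Irak4. Irak3 shares 192 of 3676 bases with Tmbim4, which was higher with LPS in both genotypes (0.75 and 0.88), as Irak3 was. Tmbim4 was not called in KO vs WT or KOL vs WTL. Tirap shares 39 of 4929 bases with Srpr, which was higher in WTL than in WT (0.58), not called in KO vs WT (0.12) and lower in KOL than in WTL (-0.27). It shares 446 bases with the antisense gene Gm39318, which had a mean of at most 0.928 normalized counts. Irak2 shares 196 of 4412 bases with Gm43963. The part of reads from these neighbours in the members' counts was not tested.

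Irak2 lies at chr6:113638467-113695026 on the plus strand, and both adjoining protein-coding genes were called in the direction opposite to it in CTCF-deficient cells. They were picked for description after their values were seen. Vhl, which encodes the substrate receptor of the ligase that degrades hypoxia-inducible factors, ends 6834 bases before Irak2. Its mean was 1098 normalized counts in WT and 3299 in KO (log2 fold change 1.59, adjusted p = 5.9e-10), and it was 596 in WTL and 2291 in KOL (1.94, adjusted p = 2.09e-10). Tatdn2, a predicted deoxyribonuclease gene that begins 2024 bases after Irak2, went from 1108 to 2172 (0.97, adjusted p = 1.92e-08) and from 847 to 2184 (1.37, adjusted p = 9.98e-10). Farther upstream the directions were mixed. Brk1, upstream of Vhl, was not called in KO vs WT (log2 fold change 0.05) and was higher in KOL than in WTL (0.37), and Fancd2, upstream of Brk1, was lower in both comparisons as Irak2 was (-0.61 and -1.27). Sec13, downstream of Tatdn2, was not called in either. Of the genes that overlap Irak2, Gm43963 (-1.09) and Gm43912 (-1.47), both at a mean of at most 26.3 normalized counts, were lower in KOL than in WTL and not called in KO vs WT. Over all 10 loci, 36 tested genes overlap a member or lie within 50 kb of one; 11 were called higher and 6 lower in KO vs WT, and 9 higher and 11 lower in KOL vs WTL. Over all genes tested, 22.2% were higher and 22.4% lower in KO vs WT, and 21.4% and 23.3% in KOL vs WTL. Counts over the 10 loci together were thus near the background. The neighbours called higher in KO vs WT included Vhl, Tatdn2, Gm26982, Ghrl, Gm44033 and Gm44053, all at Irak2, a locus described after its values were seen. CTCF binding and chromatin contacts at these loci were not analysed here. The study itself names Irak2 and Myd88 as lower in CTCF-deficient cells. At Irak2 it reports less STAT5 at intronic enhancers and weaker contacts between these and the promoter. Restoring STAT5 activity in the deficient cells did not raise Irak2 in that study.

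**Figure D4:**
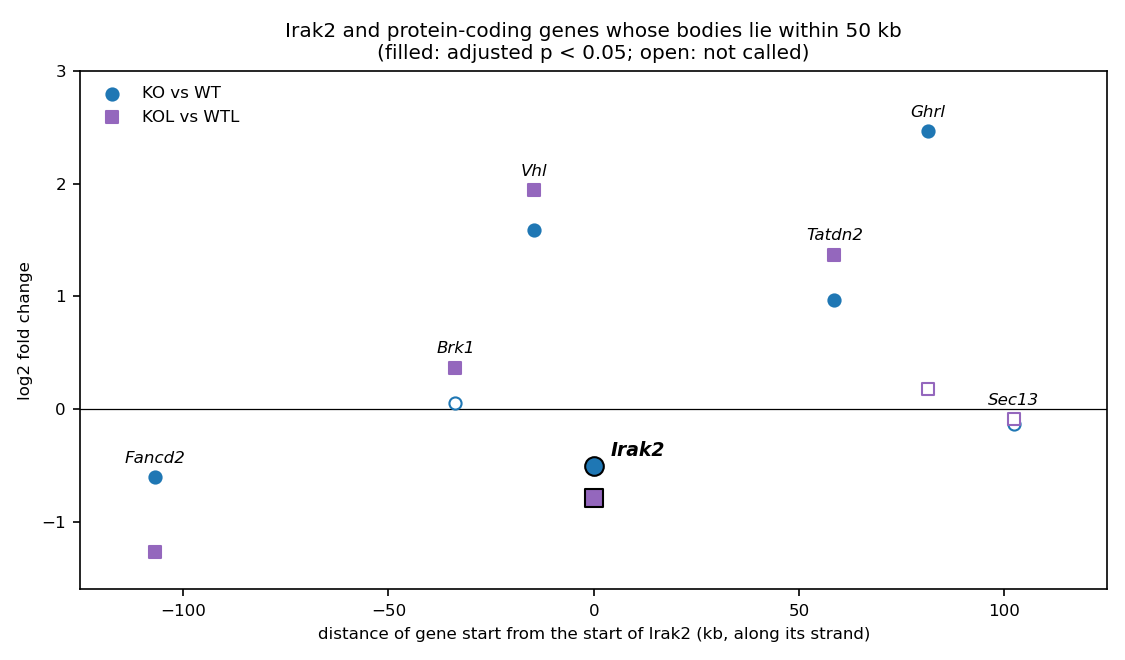
Log2 fold change (vertical axis) of Irak2 and of protein-coding genes within 50 kb of it against the distance of their starts from the start of Irak2 in kb (horizontal axis), for KO vs WT (circles) and KOL vs WTL (squares); filled symbols are called. Irak2 is at -0.51 and -0.79, and Vhl and Tatdn2 on its 2 sides lie between 0.97 and 1.94.

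The genes whose pattern was most like that of each member were ranked by the root mean square difference of centred log2 normalized counts over the 12 libraries, among 9337 genes with a mean of at least 100 normalized counts. Irak2 and Irak3 were each among the other's 3 nearest genes, at a difference of 0.11. The nearest gene was Fam53c for Myd88 (0.09), Mki67 for Tirap (0.13), Pdpk1 for Ticam2 (0.10) and Stx16 for Traf6 (0.06). It was Dcaf8 for Irak1 (0.05), Stim1 for Irak4 (0.07), Ttc17 for Traf3 (0.05), Rbm7 for Irak3 (0.09) and Mapk6 for Irak2 (0.11).

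Transcripts of proteins that work beside the products of these genes were read from a list chosen with earlier results of these data known. Its counts set beside the shares over all genes are therefore description alone. The list held 49 partners, of which 48 were tested, Sarm1 being below the filter. In WTL vs WT 28 were called higher and 12 lower, where 30.0% and 30.2% of all genes were, and in KOL vs KO 27 higher and 10 lower, against 33.6% and 33.9%. In KO vs WT 8 were higher and 12 lower, near the 22.2% and 22.4% over all genes, and in KOL vs WTL 7 were higher and 20 lower, against 21.4% and 23.3%. On the TPM scale, where the share over all genes was not computed, the split was 15 higher and 18 lower in WTL vs WT and 15 and 20 in KOL vs KO. The median log2 fold change over the partners was 0.44, 0.32, -0.06 and -0.22 in these 4 comparisons, and -0.02, -0.02, -0.01 and -0.03 over all genes.

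In the receptor complex Cd14, the co-receptor that loads LPS, had a log2 fold change with LPS of 1.98 in wild-type and 2.73 in CTCF-deficient cells, while Tlr4 itself had -1.41 and -1.37. Lbp, the serum carrier of LPS, rose in both (1.23 and 2.00) at a mean of at most 19.3 normalized counts. With CTCF deficiency Ly86, the partner of CD180, was higher without and with LPS (1.32 and 1.19), Cd14 (-0.65) and Lbp (-1.23) were lower without LPS, and Ly96, the MD-2 subunit that binds LPS, was lower after LPS (-0.48). The LPS response of Cd14 was larger in CTCF-deficient cells (interaction 0.75).

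Of the other TRAFs, Traf1 rose with LPS in both genotypes (2.07 and 2.02), as did Traf2 (0.92 and 0.80) and Traf4 (0.63 and 1.29). Traf4 had a mean of at most 75.5 normalized counts, and its WT (34.4 to 47.5) and WTL (36.4 to 85.1) libraries overlapped. Traf1 and Traf2 were lower in CTCF-deficient cells without LPS (-0.21 for each) and with it (-0.26 and -0.33). Traf5 rose with LPS in WT cells (0.75), was higher in KO than in WT (0.44), and its LPS response was smaller (interaction -0.63).

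Among the TRAF6 and TAK1 partners, Tab1, a subunit of the TAK1 complex, had the largest fall with CTCF deficiency, from a mean of 266 normalized counts in WT to 49.4 in KO (log2 fold change -2.42) and from 138 in WTL to 50.1 in KOL (-1.47). It fell with LPS in WT cells (-0.93; 0.02 and not called in KO cells), and its interaction was 0.96. Tab3 was lower in KO than in WT (-0.47) and Ube2v1 (0.36) and Sqstm1 (0.36) were higher, without LPS and with it (0.41 and 0.39). Peli1, a ligase that ubiquitinates IRAKs, and Tab2 rose with LPS in WT (2.29 and 1.39) and in KO cells (1.73 and 1.16). Peli2 (-1.05 and -1.89) and Peli3 (-0.44 and -1.42) fell, and both had a lower LPS response in CTCF-deficient cells (interactions -0.83 and -0.98). After LPS, Ube2n (0.47) was also higher in KOL than in WTL, and Peli3 (-1.01) and Peli2 (-0.85) were lower.

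In the TRIF and TRAF3 arm Irf7, a transcription factor of interferon genes, rose most (4.46 in WT and 5.06 in KO cells, interaction 0.60). Ikbke (1.70 and 0.80) and Azi2 (1.47 and 1.27) also rose in both genotypes, and Tbkbp1 (-0.86 and -1.07) and Ripk3 (-0.34 and -0.85) fell in both. Map3k14, the NIK kinase that TRAF3 holds down, fell in WT cells (-1.20) and was not called in KO cells (-0.21). Without LPS, Ripk3 (0.70) and Ikbke (0.53) were higher and Irf7 (-0.93), Birc2 (-0.49), Tank (-0.38) and Birc3 (-0.20) lower in CTCF-deficient cells. After LPS, Map3k14 (0.82) and Ripk1 (0.29) were higher and Birc3 (-0.59), Tank (-0.42), Ikbke (-0.36) and Irf7 (-0.33) lower. Interactions were called for Map3k14 (0.99), Ikbke (-0.89) and Ripk3 (-0.51) as well.

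Among the negative regulators Socs1 (4.30 in WT and 3.64 in KO cells) and Tnfaip3, the A20 deubiquitinase (2.47 and 2.59), rose with LPS. Il1rl1 (-1.27 and -0.57) and Rnf41 (-0.27 and -0.38) fell in both, and Sigirr fell in WT (-1.21) and was not called in KO cells (-0.40). With CTCF deficiency Rnf216 was higher (0.57 without and 0.47 with LPS) and Il1rl1 lower (-1.85 and -1.15). Tnfaip3 was lower without LPS (-0.54) and with it (-0.42), and Tnip1 was lower after LPS (-0.74), with an interaction of -0.60 for Tnip1.

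**Figure D5:**
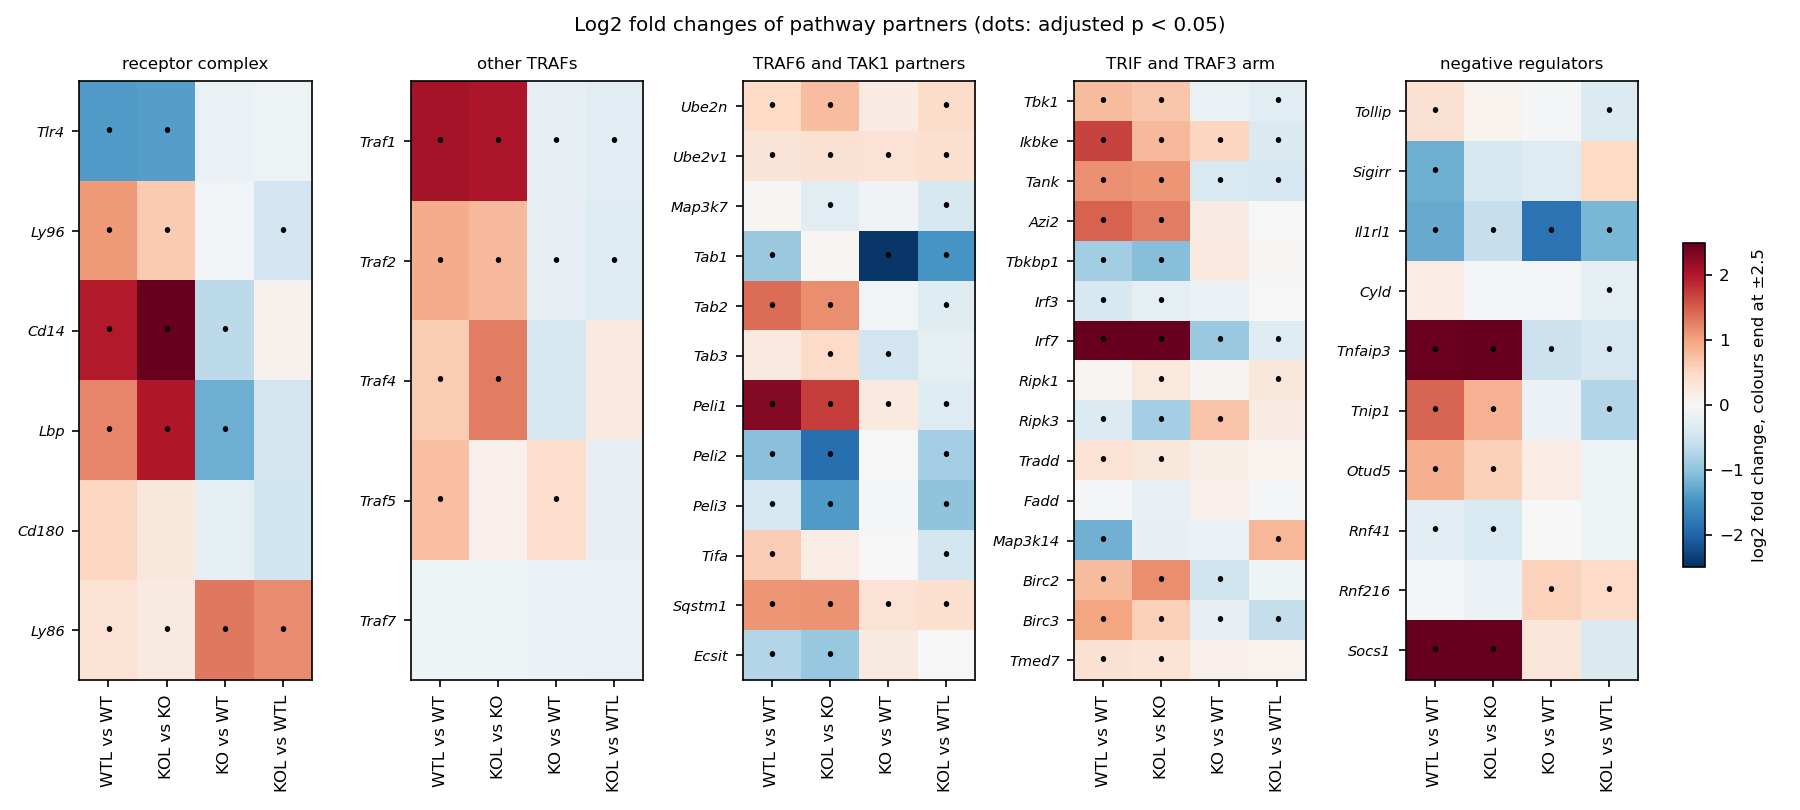
Log2 fold changes (colour, red higher and blue lower, ending at ±2.5) of the 48 tested partners in 4 comparisons, by role; dots mark calls. Tab1 is at -2.42 in KO vs WT, and 20 partners are called lower in KOL vs WTL.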

How the data were processed

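RNA-seq libraries of 4 groups (WT, WTL, KO, KOL; 3 replicates each) were assigned to groups and replicate numbers from their labels. The labels describe rRNA depletion, whereas the methods name a poly(A) stranded kit. Per the methods and the submitters' processing notes, the authors trimmed the reads, used STAR for alignment against mm10 and RSEM for gene quantification; the notes give STAR version 2.5.1 and the study's reporting summary another version. The deposited files, 1 per library, hold expected counts (RSEM's estimated reads per gene), which were used for all tests, TPM that the authors' RSEM run scaled by effective length, and isoform-weighted gene lengths; the deposited FPKM values were read but not used in any result. The strand setting is not given in the sources used here.

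Expected counts were rounded to whole numbers, filtered by edgeR's filterByExpr (14008 genes left), scaled by TMM and fitted in 1 model of 4 group means over the 12 libraries (edgeR 4.0.16, R 4.3.3). Calls were made by the quasi-likelihood F test at a Benjamini-Hochberg adjusted p below 0.05. Standard errors are the log2 fold change divided by the root of F. On simulated data the pipeline was tested for recovery of known changes. Shares and lengths were compared by exact permutation tests in Python 3.11.15. Gene positions are GENCODE vM21, and promoters are RefSeq (GRCm38.p6), matched by symbol for 9 members. Same-numbered libraries did not deviate together (correlations of deviations from group means -0.29 to 0.11), so replicate numbers were not taken as pairs.

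The members, the partner list and the marker lists were chosen with earlier results of these data known. Named were all members, Ctcf, the 2 largest rises and falls per partner group among called genes, the genes nearest each member in pattern (1 is not reported here), and genes overlapping or within 50 kb of a member; the neighbours of Irak2 described were picked from the last after their values were seen. Alternatives were DESeq2 1.42.0, edgeR with those size factors, the absence of a filter, a minimum of 10 counts in each library, a replicate block, the 6 libraries of a comparison alone, limma 3.58.1 on log2 TPM with a pseudocount of 1 or 0.1, fold cutoffs of 2, 1.3 and 1.5, each library left out, and, added after seeing the data, TPM scaled to a common median.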

Additional observations from a re-analysis of the deposited data

Results flagged for a closer look

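In 4 genes the LPS response differed between CTCF-deficient and wild-type cells by the test of the difference itself (edgeR interaction, log2 scale). Ticam2 had a difference of -0.88 (adjusted p = 0.00395): it stood at 1408 to 1431 normalized counts in KO and 560.2 to 858 in KOL, lower in every KOL library, while WT (940.1 to 981) and WTL (761 to 1007) overlapped. Irak3 had a difference of -0.46 (adjusted p = 0.0421), with LPS responses of 0.74 in wild-type and 0.27 in CTCF-deficient cells, and Irak4 one of -0.34 (adjusted p = 0.0237), with responses of -0.47 and -0.81. Ticam1 had a difference of -0.39 (adjusted p = 0.0187), being called higher with LPS in wild-type cells (0.25) and not called in CTCF-deficient cells (-0.13). The spread between libraries was wider in the LPS groups for Ticam2 and Irak3, and the part of that spread in these differences was not tested.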

How the results depend on the processing

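Numbers of genes are given as found out of the 10 members or 48 partners. Shares over all genes were computed for the main fit alone, with and without the fold cutoffs. With DESeq2, its size factors, at least 10 counts in every library or the replicate block, no count of members or partners moved by over 1.5 times. The replicate block ended the interaction call of Irak3 (-0.46) and no other member's call, and size factors ended the same call (-0.45). DESeq2 ended that of Irak4 in KO vs WT (0.17) and called the interactions of Myd88 (-0.19) and Irak2 (-0.27). Size factors put the interaction of Traf6 at 0.0025, and no filter put it at 0.0009, against -0.01. No filter also left 1 member higher in KO vs WT (Ticam2) and 2 lower in the interaction (Ticam2 and Irak3), ended the call of Ticam1 in WTL vs WT, and called Ticam2 in KOL vs WTL (-0.31) and Tirap in KOL vs KO (-0.36) lower. The 6 libraries alone ended the call of Ticam1 in KOL vs WTL (-0.24).

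On log2(TPM + 1) and log2(TPM + 0.1) the same counts were found, apart from 1 partner count: in WTL vs WT 1 member higher and 5 lower with 15 partners higher, in KO vs WT 1 member and 5 partners higher, in KOL vs KO 1 member higher and 6 lower with 15 partners higher and 20 lower, and in the interaction 1 member and 3 partners lower, with 3 partners higher at the smaller pseudocount alone. Directions turned, with values at the pseudocounts 1 and 0.1, for Tirap (-0.38 and -0.43), Ticam1 (-0.26 and -0.28), Irak2 (-0.001 and -0.001) and Traf3 (-0.33 and -0.35) in WTL vs WT, for Irak1 (-0.0242 and -0.0249) and Traf3 (-0.0451 and -0.0484) in KOL vs WTL, for Irak2 (-0.23 and -0.24) and Irak3 (-0.15 and -0.15) in KOL vs KO, and for Irak1 in the interaction (-0.0576 and -0.059). With TPM scaled to a common median no member's LPS direction turned, and the interaction of Irak1 was -0.12. That scaling left 2 members and 6 partners lower in KO vs WT, 13 partners lower in KOL vs WTL, and 2 members and 5 partners lower in the interaction.

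The fold cutoffs left 1 member higher, 0 lower, 14 partners higher and 5 lower in WTL vs WT, 1 member and 5 partners higher in KO vs WT, 2 partners higher and 6 lower in KOL vs WTL, and 1 member higher, 1 lower, 13 partners higher and 4 lower in KOL vs KO. The 6 libraries alone gave 13 partners higher and 19 lower in KO vs WT.

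With 1 library left out, 1 member was higher in KO vs WT in every fit (1 to 1), and 7 to 12 partners were lower, the 7 without KO replicate 3. In the interaction 1 to 6 members were lower, with 1 when any WT library was left out, 2 without any KO library, KOL replicate 3 or WTL replicate 2, and 6 without KOL replicate 2. There 4 to 8 partners were higher, the 8 without KOL replicate 2, and 5 to 10 lower, the 5 without WT replicate 2. Ranges that crossed 0 were those of Tirap in WTL vs WT (-0.0097 to 0.21), Traf3 in KOL vs WTL (-0.0564 to 0.10) and Traf6 in the interaction (-0.0603 to 0.0745). The causes were not tested. Every member had at least 121 estimated reads in each library.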
